A study of Homo sapiens with 6 samples.

Results

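Collagen chain genes are the genes that encode the alpha chains of collagens, and they were taken as every row whose symbol is COL, a type number, the letter A and a chain number. There were 44 such rows among the 28092 of the table. Polyadenylated RNA had been sequenced from cardiomyocytes made from H9, an established line of human embryonic stem cells, as 3 ADPRHL1 knockout samples (KO) and 3 wild-type samples (WT). Both groups share the H9 line, the cardiomyocyte differentiation and a harvest within 3 days of re-seeding, and the knockout of ADPRHL1 is the only difference the labels give. ADPRHL1 encodes a heart-enriched relative of ADP-ribosylhydrolases, and the study asked how its loss affects focal adhesions, the contacts through which cells grip their matrix. The labels name neither the knockout clones nor whether replicates came from different cultures. Every p-value is therefore set against a replicate spread that may be purely technical.

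Collagens are the main structural proteins of the extracellular matrix. Each molecule is a helix of intertwined alpha chains, made of identical chains or of different ones in set proportions. Fibrillar collagens form the banded fibrils of heart stroma, tendon, bone and cartilage. FACIT collagens (fibril-associated collagens with interrupted triple helices) sit on the surface of those fibrils. Type IV chains form the sheet of basement membranes that also surrounds each cardiomyocyte, and transmembrane collagens are anchored in the cell membrane. In the heart, fibroblasts make most of the fibrillar collagen.

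Library totals lay between 21179650 and 21401000 estimated counts in KO samples and between 21352668 and 21405718 in WT samples, so 3 counts stood for 0.140 to 0.142 CPM (TMM-scaled counts relative to library size). The targeted gene ADPRHL1 had 6.38, 5.80 and 7.58 CPM in KO samples, against 83.7, 79.6 and 79.4 CPM in WT samples. All 14 cardiomyocyte markers were detected in every sample. Where 28.6% of all genes tested were lower in KO, all 14 of these markers were lower. Their summed level lay between 6951 and 7279 CPM in KO samples and between 22344 and 22592 CPM in WT samples. In bulk RNA, fewer cells of a type and less RNA per cell cannot be told apart.

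Collagen chain genes were more often higher in KO than genes at large. Of the 44, 42 had enough counts to be tested, and 25 of these (59.5%) were higher in KO at an adjusted p under 0.05 (edgeR quasi-likelihood test, Benjamini-Hochberg over 19558 genes), where 28.4% of all genes tested were higher. A further 12 (28.6%) were lower, where 28.6% of all genes were lower, so the lower share was at the background. In either direction, 57% of all genes tested were called. By 2-fold or more, 16 were higher, against a background of 10.1%, and 2 were lower, against a background of 6.02%. The KO and WT values did not overlap for those 25 higher and 12 lower genes, against backgrounds of 32.1% and 32.5%. The median log2 fold change (KO minus WT) over the 42 was 0.45, and over all genes tested it was 0.0011. The 5 that did not pass were COL4A2, COL4A3, COL4A4, COL10A1 and COL28A1.

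**Figure D1:**
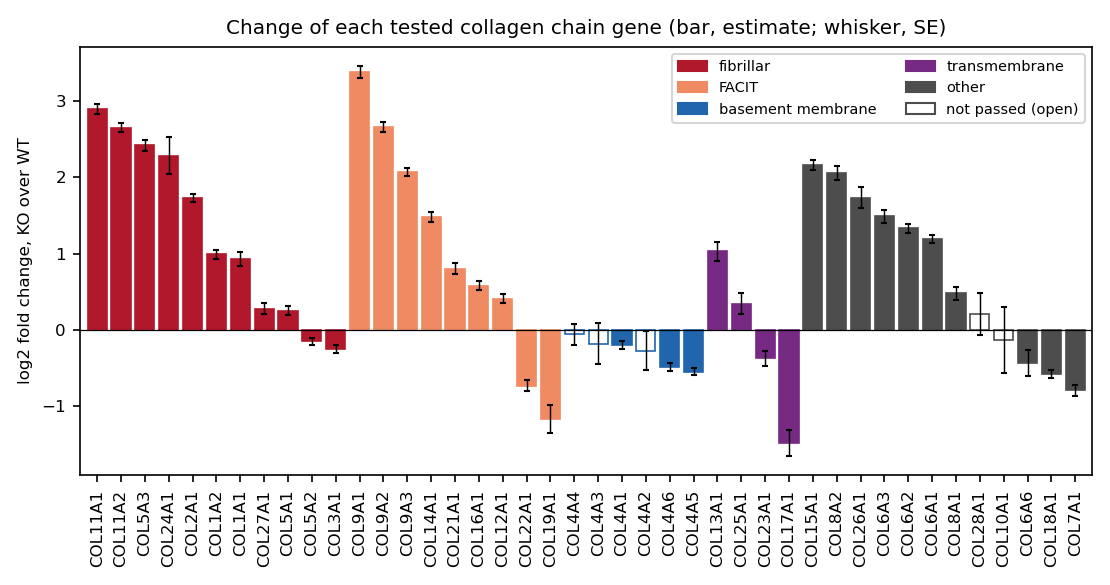
Log2 fold change of each of the 42 tested collagen chain genes (KO minus WT, edgeR), grouped and coloured by class and ordered by size within a class, with whiskers of 1 approximate standard error and open bars for genes that did not pass. The values run from 3.38 for COL9A1 to -1.48 for COL17A1.

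Classes differed in their counts. Among 11 fibrillar genes 9 were higher and 2 lower, with a median log2 fold change of 0.99. Of 10 FACIT genes 9 were tested, of which 7 were higher and 2 lower, with a median of 0.80. Of the 6 type IV genes 0 were higher, 3 were lower and 3 did not pass, with a median of -0.23. All 6 type IV log2 fold changes were below 0, so 0 were higher at an unadjusted p under 0.05, and 0 were higher by DESeq2 or limma-voom. With COL4A2 and the COL4A2-AS2 row inside it added together, 4 type IV genes and 13 collagen chain genes in all were lower. The 4 transmembrane genes gave 2 higher and 2 lower, with a median of -0.01. Among 13 remaining genes (types VI, VII, VIII, X, XV, XVIII, XXVI and XXVIII) 12 were tested, of which 7 were higher, 3 lower and 2 not passed, with a median of 0.84. Over all genes tested 28.4% were higher and 28.6% lower. The higher share was above that background in every class but type IV. The lower share was below it for fibrillar (18.2%), FACIT (22.2%) and remaining genes (25.0%). It was above it for type IV (3 of 6) and transmembrane genes (2 of 4). These counts describe the classes, and differences between classes or from the background were not tested.

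The genes of types II, IX and XI, the collagens of cartilage fibrils, held the 4 largest log2 fold changes of the 42 tested. COL9A1 (Entrez 1297; hg38 chr6:70215061-70303084), a chain of the type IX molecule that decorates type II fibrils, had 63.3, 66.5 and 62.0 CPM in KO samples, against 6.29, 5.75 and 6.33 CPM in WT samples. The lowest KO sample stood far above the highest WT sample, and the log2 fold change was 3.38 (SE 0.0724, adjusted p = 5.67e-12). COL9A2 (chr1:40300489-40317286), the second chain of type IX, had 323, 299 and 338 CPM in KO samples, against 48.8, 53.8 and 49.3 CPM in WT samples. It rose by 2.66 on the log2 scale (SE 0.0620, adjusted p = 8.30e-12), and its groups did not overlap. COL9A3 (chr20:62816213-62841159), the third chain, had 277, 255 and 266 CPM in KO samples, against 60.6, 66.2 and 63.3 CPM in WT samples. Its log2 fold change of 2.07 (SE 0.0536, adjusted p = 1.83e-11) was smaller than those of its partner chains, again without overlap.

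COL11A1 (Entrez 1301; chr1:102876473-103108522), a chain of the thin type XI fibrils that nucleate type II fibrils, had 409, 419.6 and 382 CPM in KO samples, against 50.2, 54.0 and 59.4 CPM in WT samples. All KO samples were above all WT samples, with a log2 fold change of 2.89 (adjusted p = 6.87e-12, SE 0.0659). COL11A2 (chr6:33162694-33193519), its partner chain, had 388, 375 and 406 CPM in KO samples, against 61.2, 65.8 and 59.5 CPM in WT samples. It rose by 2.65 (SE 0.0560, adjusted p = 5.67e-12). COL2A1 (chr12:47972967-48006212), the single chain of type II collagen, had 976, 926 and 1005 CPM in KO samples, against 289.8, 299.9 and 285 CPM in WT samples. Its log2 fold change was 1.73 (SE 0.0503, adjusted p = 4.76e-11), and COL2A1 was the most abundant of these 6 genes per length, at 196 ± 5.09 FPKM in KO and 56.5 ± 1.48 FPKM in WT (SD, n = 3 each).

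Where 28.4% of all genes tested were higher in KO, all 8 chondrogenic markers were higher. This list was chosen with earlier results of these data known. The 8 markers summed to between 665 and 688 CPM in KO samples and between 179 and 189 CPM in WT samples, with none at 0 in every sample. ACAN, the large cartilage proteoglycan, averaged 226 ± 17.1 CPM in KO and 23.1 ± 1.27 CPM in WT (log2 fold change 3.29). SOX9, the transcription factor that drives cartilage collagen genes, averaged 59.7 ± 3.73 CPM in KO and 37.8 ± 4.18 CPM in WT (0.66, adjusted p = 2.35e-05). Its partners SOX5 (1.63) and SOX6 (1.01) rose as well. The part of these markers in the collagen result was not tested.

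The upstream sequences of COL9A1, COL9A2 and COL11A1 are shown because these genes rose most, with COL4A1, from a type whose genes were lower or did not pass, and COL17A1, which fell most. Each run is the 250 bases before the annotated start on the minus strand, taken from RefSeq (GRCh38.p14): chr6:70303085-70303334 for COL9A1, chr1:40317287-40317536 for COL9A2, chr1:103108523-103108772 for COL11A1, chr13:110307158-110307407 for COL4A1 and chr10:104085881-104086130 for COL17A1. Capitals mark GGGCGG (the GC box), CCAAT and the SOX-type words ACAAAG and ACAATG, on either strand.
COL9A1: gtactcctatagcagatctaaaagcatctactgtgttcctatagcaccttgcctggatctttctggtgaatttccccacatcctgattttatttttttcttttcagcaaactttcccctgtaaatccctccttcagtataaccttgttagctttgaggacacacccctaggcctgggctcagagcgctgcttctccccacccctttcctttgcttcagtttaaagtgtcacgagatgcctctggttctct
COL9A2: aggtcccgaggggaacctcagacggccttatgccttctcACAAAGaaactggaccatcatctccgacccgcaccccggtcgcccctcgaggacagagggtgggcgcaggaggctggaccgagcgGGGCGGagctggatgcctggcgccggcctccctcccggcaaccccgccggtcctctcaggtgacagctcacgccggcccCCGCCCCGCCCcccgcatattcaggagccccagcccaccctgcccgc
COL11A1: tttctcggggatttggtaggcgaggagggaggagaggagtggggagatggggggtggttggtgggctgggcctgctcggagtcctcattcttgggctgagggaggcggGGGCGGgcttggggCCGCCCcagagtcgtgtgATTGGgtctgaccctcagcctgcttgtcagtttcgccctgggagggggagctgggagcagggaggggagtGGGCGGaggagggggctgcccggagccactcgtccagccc
COL4A1: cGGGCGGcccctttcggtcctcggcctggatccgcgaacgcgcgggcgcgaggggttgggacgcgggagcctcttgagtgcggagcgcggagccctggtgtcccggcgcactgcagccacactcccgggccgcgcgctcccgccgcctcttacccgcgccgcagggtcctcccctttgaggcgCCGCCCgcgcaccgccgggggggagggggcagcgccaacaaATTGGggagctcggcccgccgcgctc
COL17A1: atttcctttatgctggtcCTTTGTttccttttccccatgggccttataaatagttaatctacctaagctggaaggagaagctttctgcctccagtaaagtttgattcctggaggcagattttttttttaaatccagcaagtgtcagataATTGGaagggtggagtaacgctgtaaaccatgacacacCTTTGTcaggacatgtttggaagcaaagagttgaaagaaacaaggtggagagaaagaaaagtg
GC content was 45.6% for COL9A1, 71.6% for COL9A2, 68.8% for COL11A1, 77.6% for COL4A1 and 40.4% for COL17A1. The COL9A1 run held none of these words. COL9A2 held 3 GC boxes, of which 2 overlap by a base, and 1 ACAAAG. COL11A1 held 3 GC boxes and 1 CCAAT, COL4A1 held 2 GC boxes and 1 CCAAT, and COL17A1 held 1 CCAAT and 2 ACAAAG.

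Promoter windows of 300 bases (250 before and 50 after a start) were available for 32 of the 44 genes, as 44 windows. GGGCGG lay in 24 of the 44 collagen windows (54.5%), against 45.0% of all 35116 windows. CCAAT lay in 31.8% of collagen windows and 34.6% of all windows. ACAAAG or ACAATG lay in 18.2% of collagen windows and 24.5% of all windows, and in 1 of the 8 windows of COL9A1, COL9A2, COL11A1 and COL11A2. TATAAA lay in 18.2% of collagen windows and 11.5% of all windows, and in 0 of those 8. These shares describe letters in short windows and were not tested. The 12 genes without a window were COL1A1, COL1A2, COL2A1, COL3A1, COL5A2, COL6A1, COL6A5, COL8A1, COL9A3, COL14A1, COL20A1 and COL22A1.

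The major interstitial collagens moved in opposite directions. COL1A1 (Entrez 1277; chr17:50184101-50201631), the alpha-1 chain of type I, the main collagen of scar and bone, had 5932, 6133 and 7606 CPM in KO samples, against 3421, 3536 and 3374 CPM in WT samples. KO replicate 3 was the highest, and no KO sample overlapped a WT sample (log2 fold change 0.93, SE 0.0880, adjusted p = 1.85e-05). COL1A2 (chr7:94394895-94431227), its partner chain, had 3515, 3654 and 4190.5 CPM in KO samples, against 1868, 1918 and 1919.8 CPM in WT samples. It rose by 0.99 (SE 0.0636, adjusted p = 5.14e-08). COL3A1 (chr2:188974373-189012746), the chain of type III, which is co-assembled with type I in elastic tissues, had 4034, 4099 and 4474 CPM in KO samples, against 4903, 4997 and 5073 CPM in WT samples. It fell by 0.25 (SE 0.0527, adjusted p = 0.00151), with all KO samples below all WT samples.

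The order of these genes per length therefore differed between the groups. In KO, COL1A1 led at 1151 ± 150 FPKM, followed by COL3A1 at 902 ± 39.9 and COL1A2 at 736 ± 63.5 FPKM. In WT, COL3A1 led at 1009.8 ± 16.8 FPKM, followed by COL1A1 at 595 ± 12.6 and COL1A2 at 365 ± 5.81 FPKM (SD, n = 3 each). COL1A1 and COL3A1 did not overlap in either group: COL1A1 had 1034, 1098 and 1319.8 FPKM in KO samples, where COL3A1 had 872, 887 and 948 FPKM. In WT samples COL1A1 had 592, 609 and 584 FPKM, where COL3A1 had 1005, 996 and 1029 FPKM.

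**Figure D2:**
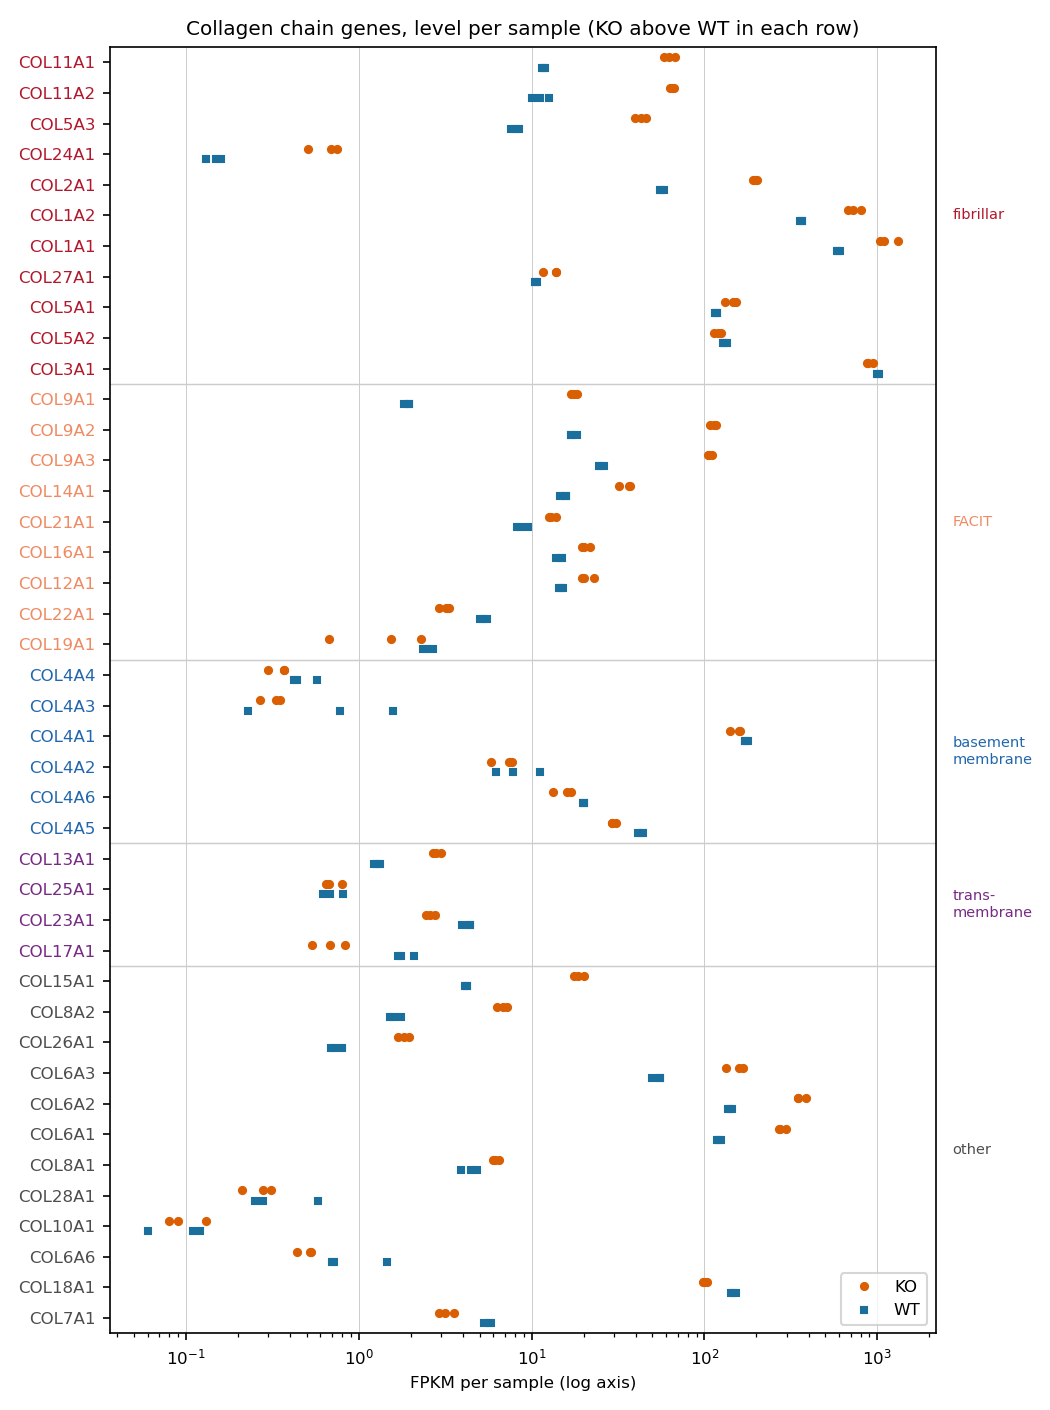
FPKM of every collagen chain gene in each sample on a log axis, grouped by class and ordered by fold change within a class, with KO (circles) above WT (squares) in each row and COL6A5 and COL20A1 left out. COL1A1, COL3A1 and COL1A2 lead in both groups, with COL1A1 first in KO and COL3A1 first in WT.

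Type V chains, which limit the width of type I fibrils, each behaved differently. COL5A3 (chr19:9959561-10010504) had 221, 226 and 263 CPM in KO samples, against 44.8, 45.2 and 43.1 CPM in WT samples. It rose by 2.42 (SE 0.0696, adjusted p = 6.39e-11), without overlap. COL5A1 (chr9:134641803-134844843) had 1032, 1126 and 1207 CPM in KO samples, against 939, 974 and 925 CPM in WT samples. All KO samples were higher, but the log2 fold change was only 0.25 (SE 0.0584, adjusted p = 0.00315). COL5A2 (chr2:189031898-189441111) had 668, 707 and 702 CPM in KO samples, against 757, 761.5 and 790.0 CPM in WT samples. It fell by 0.15 (SE 0.0466, adjusted p = 0.0139), a call that ended without WT replicate 3 (adjusted p = 0.0535).

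The remaining fibrillar genes were COL24A1 and COL27A1. COL24A1 (chr1:85729233-86156984), known from developing bone in mouse, had 3.32, 3.23 and 4.30 CPM in KO samples, against 0.667, 0.754 and 0.802 CPM in WT samples. It rose by 2.28 (SE 0.243, adjusted p = 5.80e-06), the least precise of the large changes. COL27A1, a cartilage-associated gene, averaged 96.6 ± 10.6 CPM in KO and 79.8 ± 2.65 CPM in WT (0.28, adjusted p = 0.00717). Of 12 fibroblast and mesenchymal markers 9 (75.0%) were higher and 2 (16.7%), POSTN (-1.83) and TCF21 (-1.28), were lower. Over all genes tested 28.4% were higher and 28.6% lower. The 12 markers summed to between 1844 and 1904 CPM in KO samples and between 949 and 995 CPM in WT samples, and none was at 0 in every sample. Their part in the fibrillar result was not tested.

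Outside type IX, most FACIT genes rose by less. COL14A1 (chr8:120124454-120373573), which binds mature fibrils, had 209, 228 and 251 CPM in KO samples, against 78.1, 81.0 and 87.8 CPM in WT samples. The groups stood apart, at a log2 fold change of 1.48 (adjusted p = 9.49e-09, SE 0.0705). COL12A1 (chr6:75084326-75206053), a fibril-bridging collagen of tissues under load, had 188, 213 and 186 CPM in KO samples, against 149, 146 and 145 CPM in WT samples. It rose by 0.41 (SE 0.0571, adjusted p = 5.47e-05). COL21A1 (0.80) and COL16A1 (0.58) rose too. COL22A1, a collagen of tissue junctions such as that of muscle with tendon, averaged 19.6 ± 1.10 CPM in KO and 32.4 ± 1.57 CPM in WT and fell by 0.73 (adjusted p = 2.82e-06). COL19A1 averaged 3.83 ± 1.12 CPM in KO and 8.64 ± 0.248 CPM in WT and fell by 1.17 (adjusted p = 2.05e-04). On FPKM that call ended (adjusted p = 0.0863 with a pseudocount of 1 and 0.115 with 0.1). COL20A1 had 3.46 to 9 counts per sample and was not tested.

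Type IV genes, which encode the basement membrane network, were lower or did not pass. COL4A1 (Entrez 1282; chr13:110148963-110307157), a chain of the ubiquitous network, had 931, 1023 and 1064 CPM in KO samples, against 1144, 1136 and 1187 CPM in WT samples. It fell by 0.20 (SE 0.0552, adjusted p = 0.00784), with all KO samples below WT. COL4A5 (chrX:108439838-108697545) had 176, 186 and 182 CPM in KO samples, against 272, 256 and 268 CPM in WT samples. This chain of smooth muscle and kidney basement membranes fell by 0.55 (SE 0.0472, adjusted p = 8.16e-07). COL4A6 (chrX:108155614-108439458), its partner, had 81.4, 79.5 and 72.4 CPM in KO samples, against 111, 106 and 110.4 CPM in WT samples. It fell by 0.49 (SE 0.0544, adjusted p = 8.51e-06), again without overlap. All 6 smooth muscle markers were lower too (median log2 fold change -1.25), as were all 14 cardiomyocyte markers (-1.71). Over all genes tested 28.6% were lower. The smooth muscle markers summed to between 1684 and 1842 CPM in KO samples and between 3058 and 3172 CPM in WT samples. The part of either marker list in the type IV result was not tested. COL4A3 and COL4A4, chains of the mature kidney network, averaged 1.34 and 5.10 CPM in KO and 1.495 and 5.32 CPM in WT (log2 fold changes -0.18 and -0.06, adjusted p = 0.602 and 0.744).

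COL4A2 (Entrez 1284; chr13:110307284-110513209), the obligate partner of COL4A1, had 41.1, 53.2 and 52.3 CPM in KO samples, against 77.0, 44.2 and 55.4 CPM in WT samples. The groups overlapped, and the difference of -0.27 did not pass (SE 0.251, adjusted p = 0.416). A larger count at this locus stood in another row. COL4A2-AS2 (Entrez 100129836; chr13:110456397-110463287), a gene annotated on the opposite strand inside COL4A2, had 1165, 1205 and 1378 CPM in KO samples, against 1365, 1433 and 1361 CPM in WT samples. Its count was 2447% of that of COL4A2. The length implied by count and FPKM was 6311 ± 2.92 bases in KO and 6304 ± 0.466 bases in WT for the COL4A2-AS2 row, whereas GENCODE gives its only transcript as 1522 bases and the longest COL4A2 transcript as 6494 bases. The COL4A2 row implied 7048 ± 21.1 bases in KO and 6937 ± 122 bases in WT (SD, n = 3 each).

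The sources used here do not say whether the libraries kept strand, so reads of COL4A2 and COL4A2-AS2 cannot be told apart. COL4A2-AS2 itself did not pass (-0.15, adjusted p = 0.0551). Adding both rows, a choice made after the data were seen, gave a log2 fold change of -0.16 (adjusted p = 0.0466). On FPKM, COL4A1 stood at 22.2 ± 1.90 times COL4A2 in KO and 21.8 ± 6.06 times in WT. Against the sum of both rows the ratio was 0.745 ± 0.0340 in KO and 0.768 ± 0.0339 in WT (SD, n = 3 each; exact permutation p = 0.5).

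**Figure D3:**
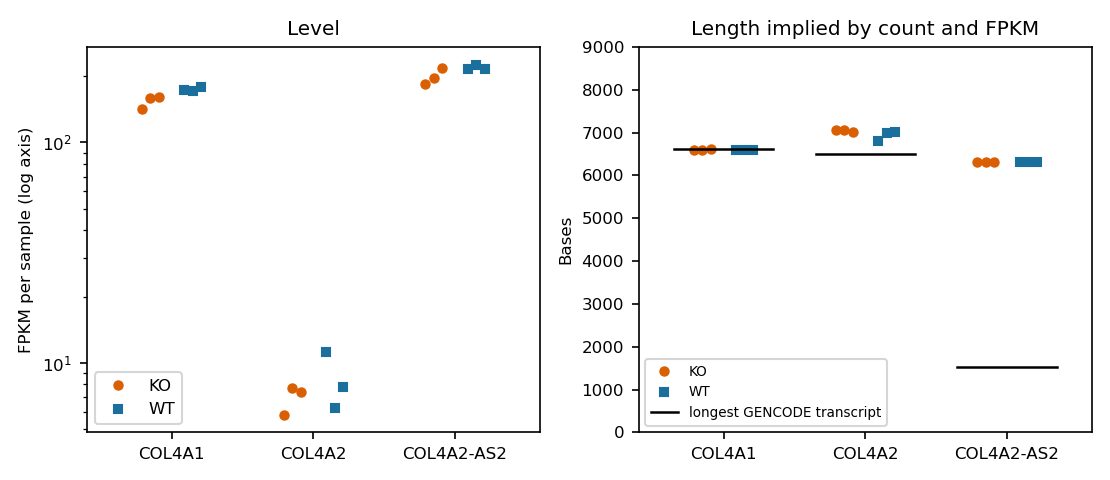
Left, FPKM per sample of COL4A1, COL4A2 and COL4A2-AS2 on a log axis, with KO left of WT. Right, the length implied by count and FPKM for these rows with the longest annotated transcript; the COL4A2-AS2 row implies about the length of COL4A2, against an annotated 1522 bases.

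Other members also share their position with another gene. By RefSeq gene spans, COL4A3 overlaps MFF-DT, whose count was 284% of that of COL4A3. COL4A4 overlaps RHBDD1 (508%) by RefSeq but not by GENCODE spans, and COL10A1 lies within NT5DC1 (4084%). For COL9A3 and TCFL5 the figure was 12.1%, and for COL18A1 and SLC19A1 it was 11.4%. Whole gene spans were compared and exons were not. Values of COL4A3, COL4A4 and COL10A1 may be less certain than their p-values for that reason.

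Transmembrane collagens were scarce in both groups. COL17A1 (chr10:104031286-104085880), the hemidesmosome collagen of epithelia, had 3.78, 2.91 and 4.56 CPM in KO samples, against 9.92, 9.56 and 12.0 CPM in WT samples. It fell by 1.48 (SE 0.166, adjusted p = 8.90e-06), the largest fall of any collagen chain gene tested. Epithelial markers split beside it: 1 of 6 was higher and 3 were lower, KRT5 the most at -3.76 on the log2 scale. The shares over all genes tested were 28.4% higher and 28.6% lower. The 6 epithelial markers summed to between 4480 and 4988 CPM in KO samples and between 5069 and 5315 CPM in WT samples. Most of that sum was KRT8 (3033 CPM in KO and 3371 CPM in WT on average) and KRT18 (1603 and 1694 CPM). KRT5 averaged only 2.04 CPM in KO and 27.4 CPM in WT, and GRHL2 2.89 and 8.10 CPM. The part of these 6 markers in the COL17A1 result was not tested. COL13A1, found at muscle and nerve junctions, averaged 8.0 ± 0.0932 CPM in KO and 3.902 ± 0.101 CPM in WT (1.03, adjusted p = 1.88e-05). COL23A1 fell by 0.37 (adjusted p = 0.00663). COL25A1, needed for motor innervation of muscle in mouse, averaged 6.93 ± 0.767 CPM in KO and 5.46 ± 0.425 CPM in WT (0.34, adjusted p = 0.0495). That call ended under 10 of 18 alternatives, among them the omission of KO replicate 2 (adjusted p = 0.154), KO replicate 3 (0.113), WT replicate 1 (0.134), WT replicate 2 (0.0563) or WT replicate 3 (0.155), and its FPKM was 0.707 ± 0.0814 in KO and 0.703 ± 0.0971 in WT.

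Of the 5 type VI genes, which encode beaded filaments that link cells to fibrils, COL6A1, COL6A2 and COL6A3 rose, COL6A6 was lower and COL6A5 was not tested. COL6A3 (chr2:237324018-237414164), the longest of these chains, had 1223, 1430.4 and 1555 CPM in KO samples, against 466, 515 and 519 CPM in WT samples. It rose by 1.49 (SE 0.0870, adjusted p = 7.59e-07). COL6A2 (chr21:46098112-46132848) had 1184, 1158 and 1331 CPM in KO samples, against 475, 502 and 486 CPM in WT samples. Its log2 fold change was 1.33 (SE 0.0584, adjusted p = 1.49e-09). COL6A1 (chr21:45981770-46005048) had 1139, 1142 and 1267 CPM in KO samples, against 508, 535 and 514 CPM in WT samples. It rose by 1.19 (SE 0.0543, adjusted p = 2.04e-09), and none of these 3 genes had overlapping groups. The alternative chain COL6A6 averaged 3.898 ± 0.779 CPM in KO and 5.25 ± 0.248 CPM in WT (-0.43, adjusted p = 0.0438). The COL6A6 call ended under 9 of 18 alternatives, among them DESeq2 (adjusted p = 0.139), total-count scaling (0.0622) and upper-quartile scaling (0.0613). It also ended without KO replicate 1 (adjusted p = 0.106), KO replicate 3 (0.149), WT replicate 1 (0.0997), WT replicate 2 (0.0646) or WT replicate 3 (0.0927). COL6A5 had 0 to 2 counts per sample and was not tested.

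The related genes COL15A1 and COL18A1, whose products sit in and beside basement membranes and release anti-angiogenic fragments, moved apart. COL15A1 (chr9:98943907-99070787) had 96.3, 99.8 and 110.4 CPM in KO samples, against 23.1, 23.2 and 22.4 CPM in WT samples. It rose by 2.16 (SE 0.0638, adjusted p = 5.45e-11). COL18A1 (chr21:45405165-45513720) had 539, 532 and 576 CPM in KO samples, against 814, 852 and 790.6 CPM in WT samples. It fell by 0.58 (SE 0.0508, adjusted p = 1.02e-06), and neither gene had overlapping groups. Of 8 endothelial markers 6 (75.0%) were higher and 1 (12.5%) was lower, against 28.4% and 28.6% of all genes tested. The lower marker was EMCN (-1.83). The 8 markers summed to between 324 and 362 CPM in KO samples and between 204 and 208 CPM in WT samples. Most of that sum was KDR (210 CPM in KO and 170 CPM in WT on average) and FLT1 (82.9 and 22.4 CPM). CDH5 averaged only 1.30 CPM in KO and 0.704 CPM in WT, and VWF 1.74 and 0.948 CPM. The part of these 8 markers in these results was not tested.

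Type VIII network genes rose unequally. COL8A2 averaged 32.4 ± 2.34 CPM in KO and 7.75 ± 0.686 CPM in WT (2.06, adjusted p = 1.47e-09), and COL8A1 averaged 31.7 ± 1.29 CPM in KO and 22.7 ± 2.49 CPM in WT (0.48, adjusted p = 3.04e-04). COL26A1 averaged 13.0 ± 1.59 CPM in KO and 3.92 ± 0.484 CPM in WT (1.73, adjusted p = 4.04e-07). COL7A1, the anchoring fibril gene of skin, averaged 36.4 ± 3.25 CPM in KO and 63.2 ± 4.42 CPM in WT and fell by 0.79 (adjusted p = 1.77e-06). COL10A1, the gene of hypertrophic cartilage, averaged 0.595 ± 0.190 CPM in KO and 0.649 ± 0.220 CPM in WT, a difference that did not pass (-0.13, adjusted p = 0.818). COL28A1 averaged 1.82 ± 0.426 CPM in KO and 1.58 ± 0.252 CPM in WT (0.21, adjusted p = 0.542).

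Summed over all 44 genes, collagen expression was higher in KO. The sum was 4619, 4822 and 5277 FPKM in KO samples, against 3132, 3173 and 3166 FPKM in WT samples, a ratio of 1.55. That is 1.24 ± 0.0872% of all FPKM in KO and 0.857 ± 0.00699% in WT (SD, n = 3 each). Fibrillar genes summed to 3431 ± 269 FPKM in KO and 2316 ± 14.1 FPKM in WT (ratio 1.48). FACIT genes summed to 331 ± 4.30 FPKM in KO and 106 ± 1.47 FPKM in WT (3.13), the largest ratio of any class. That ratio was 2.57 on CPM. COL9A2 and COL9A3 held most of the FACIT sum in KO, at 112.5 and 106.9 FPKM on average, against 17.4 and 25.2 FPKM in WT. Type IV genes summed to 206 ± 10.8 FPKM in KO and 247 ± 5.91 FPKM in WT (0.837), transmembrane genes to 6.81 ± 0.0929 FPKM in KO and 8.09 ± 0.125 FPKM in WT (0.842), and the remaining genes to 929.9 ± 57.4 FPKM in KO and 481 ± 13.9 FPKM in WT (1.93). The type IV sum is uncertain, since COL4A2 and COL4A2-AS2 cannot be told apart: with the COL4A2-AS2 row added it was 405 ± 24.9 FPKM in KO and 465 ± 0.534 FPKM in WT (0.873), and the sum over all collagen genes had a ratio of 1.51. No class sum overlapped between groups, and these sums are given as a description with no test.

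In the makeup of the collagen RNA, COL1A1, COL1A2 and COL3A1 together held 56.8 ± 1.24% of collagen FPKM in KO and 62.4 ± 0.203% in WT. The 6 genes of types II, IX and XI, grouped after their values were seen, held 11.4 ± 0.757% in KO and 3.93 ± 0.126% in WT (SD, n = 3 each). Type IV genes held 4.21 ± 0.220% in KO and 7.81 ± 0.224% in WT, or 7.94 ± 0.193% in KO and 13.8 ± 0.0948% in WT with the COL4A2-AS2 row added. Each of these shares also gave an exact permutation p of 0.1, the smallest possible here, and is given as a description.

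**Figure D4:**
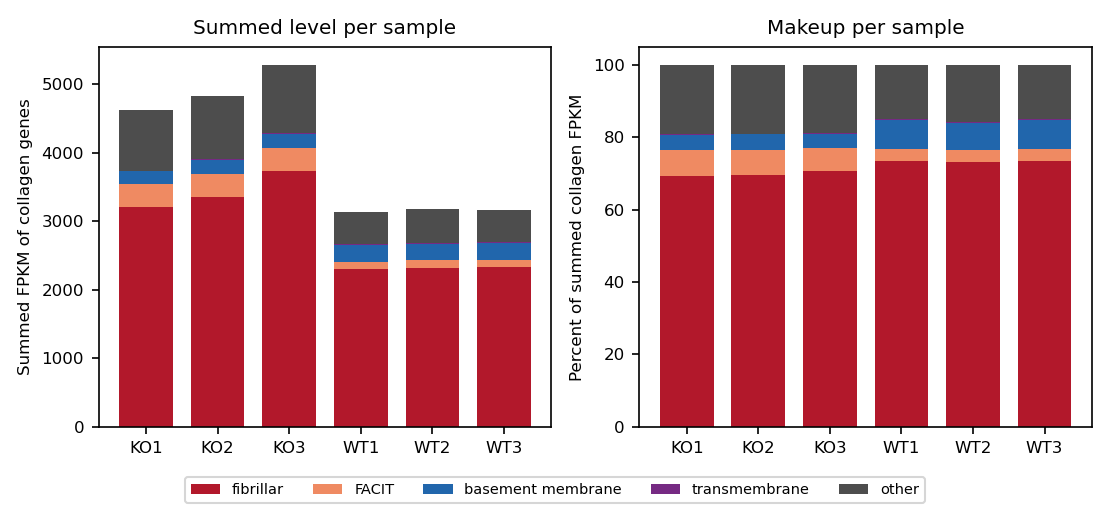
Left, summed FPKM of collagen chain genes per sample, stacked by class. Right, the same as percent of each sample's collagen FPKM; FACIT genes hold 6.77% in KO and 3.35% in WT on average, and type IV genes, without the COL4A2-AS2 row, 4.21% in KO and 7.81% in WT.

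Ratios between chains that share a molecule, or a kind of fibril, were compared on FPKM for 10 pairs, with p-values adjusted over them. The ratio of COL1A1 to COL1A2 was 1.56 ± 0.0691 in KO and 1.63 ± 0.0391 in WT (SD, n = 3 each), with overlapping groups (exact permutation p = 0.2, adjusted 0.25). COL4A5 to COL4A6 gave 1.96 ± 0.237 in KO and 2.14 ± 0.0718 in WT, also overlapping (exact permutation p = 0.4, adjusted 0.444). COL4A1 to COL4A2 overlapped too (exact permutation p = 0.9). The other 7 pairs did not overlap, each with an exact permutation p of 0.1 (adjusted 0.143), the smallest this design allows, so none could pass 0.05. Among all single genes tested, groups did not overlap for 32.1% as higher and 32.5% as lower, so such separation was common. No such share was computed for pairs of genes.

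Among those 7, COL11A1 to COL5A1, chains that can enter the same fibrils, gave 0.440 ± 0.0497 in KO and 0.1003 ± 0.00441 in WT. COL8A1 to COL8A2 gave 0.911 ± 0.0569 in KO and 2.71 ± 0.252 in WT, so the more abundant of the pair per length changed. COL2A1 to COL11A1 gave 3.14 ± 0.312 in KO and 4.83 ± 0.203 in WT. The size of both COL11A1 differences depended on the measure. On the log2 scale (KO minus WT), COL2A1 to COL11A1 gave -0.63 on FPKM and -1.16 on CPM. COL11A1 to COL5A1 gave 2.13 on FPKM and 2.65 on CPM. COL9A2 to COL9A3 gave 1.05 ± 0.0482 in KO and 0.691 ± 0.00824 in WT, and COL5A1 to COL5A2 gave 1.197 ± 0.0629 in KO and 0.893 ± 0.0387 in WT. The smallest differences were in type VI. COL6A1 to COL6A2 gave 0.780 ± 0.0137 in KO and 0.859 ± 0.00512 in WT, and COL6A3 to COL6A1 gave 0.544 ± 0.0438 in KO and 0.442 ± 0.0211 in WT.

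**Figure D5:**
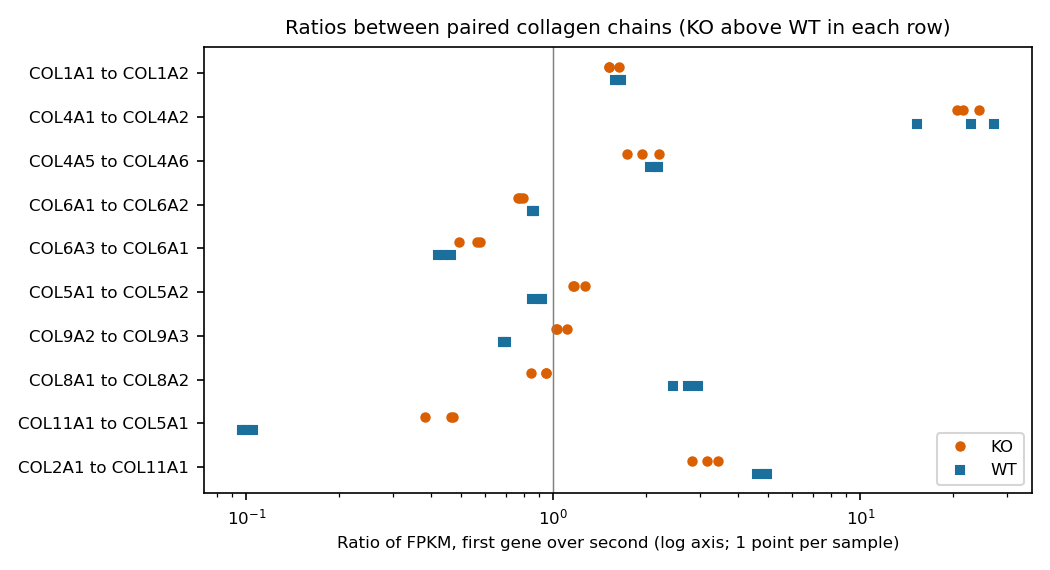
FPKM ratio of each of the 10 chain pairs in every sample on a log axis, KO (circles) above WT (squares), with a line at 1. The groups overlap for COL1A1 to COL1A2, COL4A1 to COL4A2 and COL4A5 to COL4A6, and stand apart for the other 7 pairs.

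Counts and FPKM gave different folds for some genes, since the length implied by both values differed between groups. For COL11A1 that length was 6494 ± 115 bases in KO and 4608 ± 274 bases in WT (SD, n = 3 each), so the rise was 7.402-fold in counts and 5.34-fold in FPKM. GENCODE lists 14 COL11A1 transcripts of 297 to 7327 bases. COL14A1 implied 6554 ± 181 bases in KO and 5304 ± 216 bases in WT (2.79-fold in counts, 2.29-fold in FPKM). COL26A1 (3.33-fold and 2.46-fold) and COL9A1 (10.5-fold and 9.21-fold) showed the same order. Genes that fell or did not pass differed as well. COL28A1, which did not pass, was 1.15-fold in counts and 0.721-fold in FPKM, on opposite sides of no change. COL4A3, also not passed, was 0.894-fold and 0.367-fold. Among lower genes, COL23A1 was 0.775-fold and 0.609-fold, and COL19A1 was 0.444-fold and 0.597-fold. Which transcripts the authors' estimates assigned was not tested.

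Neighbouring collagen genes mostly had the same sign, but no share of same-sign neighbours was computed over all genes. The type IV genes lie head to head in pairs, COL4A1 and COL4A2 with 126 bases between them (-0.20 and -0.27), COL4A4 and COL4A3 with 135 (-0.06 and -0.18), and COL4A6 and COL4A5 with 379 (-0.49 and -0.55). Of these, COL4A2, COL4A3 and COL4A4 did not pass. COL3A1 and COL5A2, 19151 bases apart on chromosome 2, both fell (-0.25 and -0.15), and COL6A1 and COL6A2, 93063 bases apart on chromosome 21, both rose (1.19 and 1.33). COL19A1 and COL9A1 are separated by 2592 bases on chromosome 6 and moved in opposite directions (-1.17 and 3.38).

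Genes that build and modify collagen were mostly higher in KO. Of 37 biosynthesis and processing genes tested, 26 (70.3%) were higher, 5 (13.5%) were lower and 6 did not pass, with a median log2 fold change of 0.38. Over all genes tested 28.4% were higher and 28.6% lower, with a median of 0.0011. The 3 risers of smallest p were PCOLCE and PCOLCE2, which speed the removal of the C-terminal propeptide, and P3H1, a prolyl 3-hydroxylase. PCOLCE had 98.1, 94.3 and 108 CPM in KO samples, against 36.8, 36.7 and 37.3 CPM in WT samples (1.44, adjusted p = 9.68e-10). P3H1 averaged 128 ± 6.11 CPM in KO and 70.0 ± 2.95 CPM in WT (0.88, adjusted p = 3.46e-08), and PCOLCE2 averaged 14.7 ± 0.832 CPM in KO and 4.17 ± 0.302 CPM in WT (1.82, adjusted p = 3.80e-08). The 3 fallers of smallest p were the crosslinking enzyme gene LOXL4 (-0.45, adjusted p = 5.76e-05), the collagen galactosyltransferase gene COLGALT2 (-0.52, adjusted p = 5.94e-05) and MIA3 (-0.33, adjusted p = 5.60e-04), which encodes the TANGO1 export receptor for bulky cargo.

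Among collagen receptor genes ITGA10 had the largest change. Of 11 listed, 8 were tested (GP6, LAIR1 and OSCAR were not), of which 5 were higher, 2 were lower and 1, ITGB1, did not pass, with a median of 0.66. These shares are 62.5% higher and 25.0% lower, against 28.4% and 28.6% of all genes tested, so the lower share was near the background. ITGA10, the type II collagen receptor subunit of chondrocytes, had 111, 122 and 119 CPM in KO samples, against 17.9, 18.1 and 16.9 CPM in WT samples (2.73, adjusted p = 6.15e-12). ITGA11, a fibroblast receptor subunit for type I, averaged 208 ± 10.3 CPM in KO and 104 ± 8.10 CPM in WT (1.0, adjusted p = 3.76e-08). MRC2, which takes up collagen for degradation, averaged 239 ± 22.5 CPM in KO and 121 ± 5.96 CPM in WT (0.99, adjusted p = 1.79e-07). ITGA1, the subunit that prefers type IV, averaged 125 ± 1.47 CPM in KO and 196 ± 7.41 CPM in WT and fell by 0.64 (adjusted p = 1.83e-07). DDR1, a receptor tyrosine kinase, averaged 140 ± 14.4 CPM in KO and 162 ± 7.01 CPM in WT, with overlapping groups (-0.22, adjusted p = 0.0199). The count of lower receptors was 1 without KO replicate 2 and without WT replicate 2.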

How the data were processed

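RNA was measured in 3 KO and 3 WT samples (polyA selection and random priming, per the labels' protocols). The authors deposited estimated counts per gene, of which 10.9 to 12% of values above 0 were whole, and expression values read here as FPKM, although the deposited header names no unit. The submitters' processing notes name hg38 with no role; for the aligner, counter, annotation and strand the entry is not given in the sources used here.

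Counts were rounded and tested with edgeR 4.0.16 (R 4.3.3): filterByExpr (minimum count 10, total 15), TMM, robust quasi-likelihood, genotype only, Benjamini-Hochberg over 19558 genes, threshold 0.05. Standard errors derive from the F statistic and are approximate. FPKM ratios, sums and shares were compared by exact two-sided permutation, which cannot pass 0.05 in this design. Depth was 21179650 to 21405718 counts, with a common biological coefficient of variation of 0.0791. Chi-square per degree of freedom between replicates was 3.37 to 6.81, above sampling noise. That value does not show whether replicates came from different cultures. All 6 samples were counted separately. Implied length is count divided by FPKM and library total.

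Members and lists were chosen with earlier results of these data known. Values per sample are given for a fixed list of members and for the 8 called members of largest fold with a mean of at least 1 CPM; in partner lists the 3 risers and 3 fallers of smallest p are named. On simulated counts (19256 genes) the test recovered 61.2% of 67 changes of 0.5, 98.5% of 67 of 1 and 100% of 66 of 2 on the log2 scale. The simulation left 19056 genes unchanged and gave every gene the common dispersion, whereas 57% of genes were called in the data. These recovery rates may therefore not hold for the data. Alternatives tried were total-count, upper-quartile and RLE scaling, limma-voom, DESeq2 1.42.0 and limma on log2(FPKM + 1) or log2(FPKM + 0.1) (limma 3.58.1), other filters, unrounded counts, named rows only, a test against a fold of 1.5, a replicate block and leaving out each replicate. Adding COL4A2-AS2 to COL4A2 was chosen after the data were seen.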

Additional observations from a re-analysis of the deposited data

How the results depend on the processing

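Of the log2 fold changes of single collagen genes recomputed under each alternative, 787 kept direction and call, 35 lost the call, 1 gained it and 2 changed sign. Both were of COL10A1, which passed in neither case, at 0.06 without KO replicate 1 and 0.04 without WT replicate 1 (range -0.41 to 0.06 with 1 replicate left out). Leaving out 1 replicate gave 24 to 25 higher and 10 to 12 lower collagen genes, 1 to 2 lower fibrillar genes, 1 to 2 higher transmembrane genes and 1 to 3 lower receptor genes.

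The test against a fold of 1.5 called 3257 of all genes, against 11151, and lost 15 collagen calls: it left 3 collagen genes lower, 0 fibrillar, 0 type IV, 1 FACIT, 1 transmembrane and 1 remaining gene lower, 1 transmembrane gene higher, 9 biosynthesis genes higher and 0 lower, and 0 receptors lower. On FPKM, with either pseudocount, 1 FACIT gene was lower, since the COL19A1 call ended. The transmembrane genes higher numbered 1 under DESeq2, limma-voom, no low-count filter, the replicate block and both FPKM fits, as COL25A1 lost its call or was not tested. The cause of these changes was not tested.

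Replicate numbers did not pair the samples (correlation of deviations 0.023, -0.008 and -0.013 for numbers 1 to 3). A replicate block gave 10702 calls over all genes against 11151 without it, and COL25A1 stood at an adjusted p of 0.0607.

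The log2 ratio of COL4A1 to COL4A2 (0.06) became -0.04 with COL4A2-AS2 added, and lay between -0.18 and 0.24 when 1 replicate was left out. With 3 samples a group, no exact test could pass 0.05, and genes near 3 counts could not be compared.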
